A study of Mus musculus with 12 samples.

Results

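The comparison described here set 4 spinal cord lesions from mice given tamoxifen against 4 uninjured cord segments, 8 of the 12 libraries of a bulk RNA sequencing series. Members were chosen by their titles alone, which name each mouse by a number and call it injured with tamoxifen or uninjured. All 12 mice were adults of over 8 weeks on the C57bl/6J background and carried Glast-CreERT2, R26R-YFP and the alleles named Rasless, which the labels do not spell out. The lesions came from dorsal hemisections at high thoracic level and were taken 14 days after injury. Tamoxifen was given as 2 mg on each of 5 days, and surgery followed 7 clearing days later. The uninjured mice are labelled as injected with vehicle, and the other 4 libraries are lesions of vehicle-injected mice.

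After a cut into the cord, perivascular cells known as type A pericytes detach from vessels, multiply and give rise to stromal cells that lay down fibrous matrix in the lesion core. Around that core, astrocytes become reactive, microglia and blood-derived macrophages take up debris, and neurons and myelin are lost. In this line the Cre recombinase is driven by the Glast (Slc1a3) promoter, which serves to mark type A pericytes, and the series describes the tamoxifen lesions as holding less pericyte-derived scar. Slc1a3 is also a gene of astrocytes, and the libraries mix recombined cells with all others of the tissue piece. Since the uninjured mice had no tamoxifen, injury and tamoxifen cannot be told apart in the main comparison. The vehicle lesions are therefore given beside it, with the test of tamoxifen lesion against vehicle lesion. Both lesion groups were set against the same uninjured libraries. Because the series describes these lesions by their smaller scar, lower scar genes in them add no independent evidence.

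Values are CPM, counts scaled to library size by TMM. Log2 changes are given ± a standard error derived from the edgeR quasi-likelihood F. It is the size of the change divided by the square root of F, and is unreliable where the change is near 0. A gene is said to have risen or fallen where its edgeR quasi-likelihood p was under 0.05. That p carries Benjamini-Hochberg adjustment over the 16473 genes tested. Values listed for 4 libraries follow the order 376, 377, 385 and 467 for uninjured cord and 452, 513, 549 and 564 for tamoxifen lesions. These are whole tissue pieces, so fewer cells of a type and less RNA per cell cannot be told apart. The labels give 1 mouse per library.

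Total counts ran from 8868865 to 11686386 in uninjured cord and from 8302843 to 11804143 in the tamoxifen lesions. Library 452 stood apart from the other 3 tamoxifen lesions. Its sample name is 15, beside 106, 107 and 108 for the others, 1 to 4 for uninjured cord and 17 to 20 for vehicle lesions. The high sample names thus occur only in the tamoxifen group, and for 513, 549 and 564 the 2 cannot be told apart. On the component that held 21.9% of the variance of all 12 libraries, 452 lay at 2.8 and the other 3 tamoxifen lesions from -50.7 to -43.7. Uninjured libraries lay from -4.76 to 17.1 there and vehicle lesions from 15.7 to 42.1. In 513, 549 and 564, 498 of 15254 genes also had counts out of step with the authors' FPKM values (479 too high and 19 too low), and no such gene is named here. Counts of the lists described are given again for library 452 as the only tamoxifen library where they move by over 1.5 times, a fit that assumes it varies like the other libraries and that was added after the data were seen. Uninjured libraries 377 and 385 held skeletal muscle transcripts, and uninjured 467 held few transcripts of meninges and nerve roots. Library 467 and 3 of the 4 vehicle lesions carried Y-linked transcripts, and the tamoxifen lesions had at most 0.367 CPM of them, so the 2 lesion groups also differ in sex. Hras1 was counted at 14.2, 20.7, 16.7 and 17.4 CPM in uninjured cord and 17.3, 14.6, 13.7 and 15.3 in the tamoxifen lesions (adjusted p by edgeR 0.208). Whole-tissue counts do not show recombination in 1 cell type.

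Against uninjured cord, 4328 genes rose (26.3% of those tested) and 3735 fell (22.7%) in the tamoxifen lesions, with a median log2 change over all genes of 0.01. At least 2-fold, 1370 rose (8.32%) and 303 fell (1.84%), so the larger changes were mostly rises. With library 452 as the only tamoxifen library, 1262 rose and 762 fell. In the authors' FPKM, 4148 of 4305 risen genes and 3685 of 3708 fallen genes with a value moved the same way. The vehicle lesions had 4393 genes higher (26.7%) and 3975 lower (24.1%) than uninjured cord, together 50.8%, beside 48.9% for the tamoxifen lesions. Between the lesion groups, 1283 genes were higher (7.79%) and 1372 lower (8.33%) after tamoxifen, together 16.1%. A list whose rises come near 26.3% of its members, or its falls near 22.7%, does no more than genes at large. The lists and their members were chosen with earlier results of these data known. A higher share therefore describes a list and is not independent evidence. The shares of 26.3% and 22.7% do not apply to the fit with library 452 alone, in which far fewer genes pass at large. A smaller count of list members there is therefore not by itself a loss of the change.

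Genes were ranked by change only where lesion and uninjured libraries did not overlap, in CPM and in FPKM. The 10 largest rises among those with clear counts were of Cst7, Tgm1, Gpnmb, Atp6v0d2, Cd22, Pbk, Arg1, Itgax, Clec7a and Hal. Cst7, a protease inhibitor of activated microglia, had 0, 0.257, 0.264 and 0.0878 CPM in uninjured cord and 45.9, 8.29, 7.28 and 8.72 in the lesions, so library 452 held several times as much as the other 3. Gpnmb, a membrane glycoprotein of lipid-laden phagocytes, went from 5.51, 5.91, 4.57 and 3.34 to 224, 648, 640 and 119 CPM, a log2 change of 6.40 ± 0.67. Tgm1, a protein-crosslinking transglutaminase, went from 0.689, 0.514, 0.264 and 0.263 to 17, 49, 65.1 and 33.4 CPM. Atp6v0d2, a subunit of the lysosomal proton pump, was at most 0.23 CPM in uninjured cord and 5.75, 11.9, 8.32 and 2.57 CPM in the lesions. Cd22, a lectin receptor, was at most 0.459 CPM in uninjured cord and 10.9, 16.2, 14.5 and 3.77 in the lesions. Clec7a, another lectin receptor, and Itgax, the integrin chain CD11c, rose by 5.02 and 5.03 on the log2 scale. By that rule the lowest lesion library lay above the highest uninjured one in each of these genes. The remaining names in the list were Arg1 (arginase), Pbk (a mitotic kinase) and Hal (histidine ammonia-lyase), each lowest in library 452 among the lesions. Pbk was at 0.803, 0.0857, 0 and 0.176 CPM in uninjured cord and 1.56, 10.4, 16.9 and 11.9 in the lesions.

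Of the 10 largest falls among the genes ranked, 5 were of receptor and potassium channel genes (Grin2b, Glra1, Oprm1, Kcnb2 and Kcnj6). The share of such genes among all ranked falls was not counted. Ksr2, a scaffold of the ERK pathway, went from 17.6, 22, 24 and 16.7 CPM to 6.59, 3.35, 1.73 and 2.94. Grin2b, an NMDA receptor subunit, went from 20.3, 19, 25.4 and 22.6 to 7.55, 1.77, 3.03 and 4.68 CPM, a log2 change of -2.39 ± 0.31. Glra1, the adult glycine receptor subunit, went from 179, 195, 231 and 178 to 77.2, 50.7, 48.3 and 51.4 CPM. Oprm1, the mu opioid receptor, fell by 1.81 on the log2 scale, from a mean of 12.9 ± 3.39 to 3.76 ± 1.76 CPM (SD, n = 4). The others were Kcnb2 and Kcnj6 (potassium channels), Aqp6 (a water channel), Dgkh (a diacylglycerol kinase), Gprin3 and Ankfn1, with log2 changes from -2.19 to -1.66. By the rule of the ranking the uninjured and lesion libraries did not overlap in any of the 10. Library 452 was the least reduced of the lesions for Ksr2, Grin2b, Glra1, Oprm1, Kcnb2, Kcnj6, Dgkh and Aqp6.

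**Figure D1:**
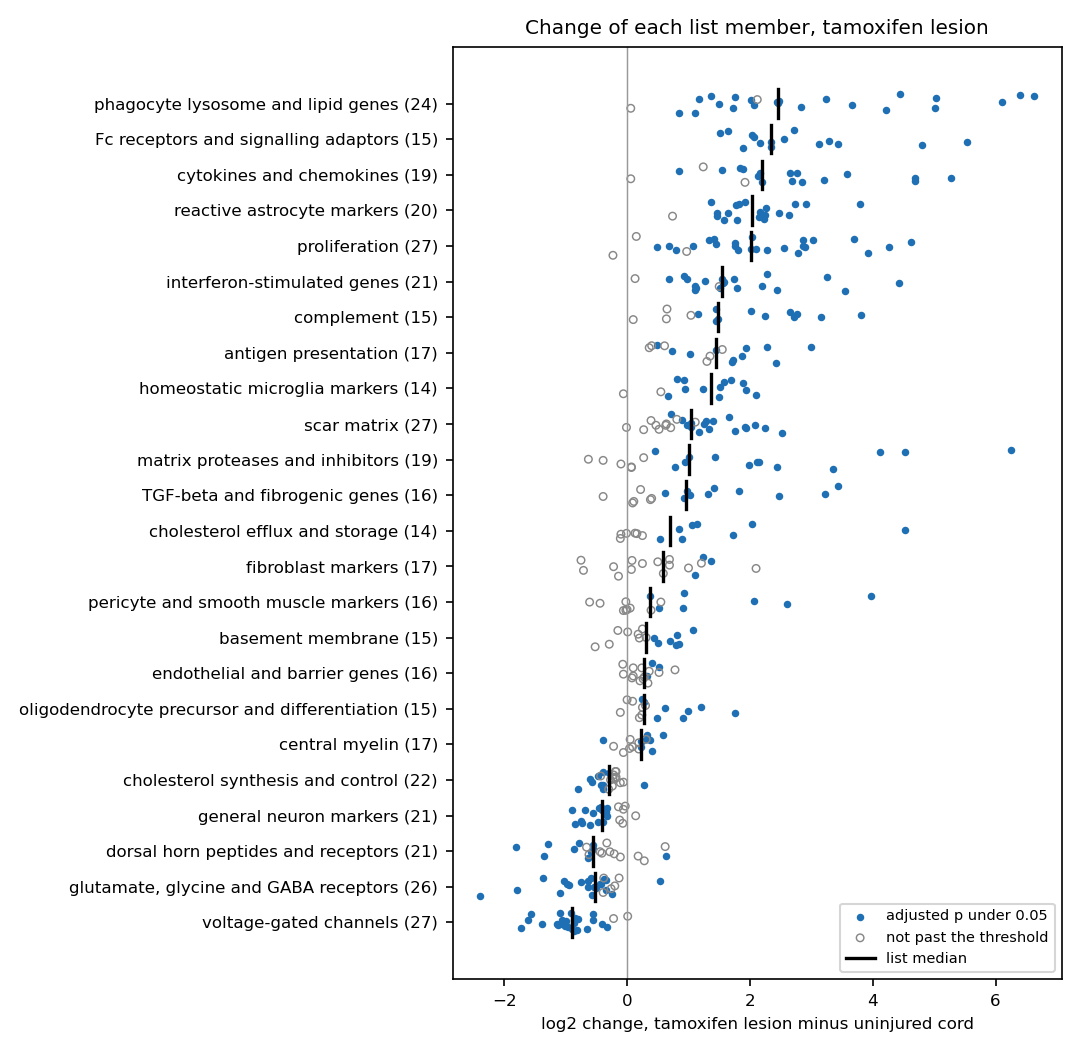
Each point is a gene of the list named at the left (number tested in parentheses), placed by its log2 change in tamoxifen lesions against uninjured cord; filled points have an edgeR adjusted p under 0.05 and bars are list medians. Phagocyte, Fc receptor and reactive astrocyte lists lie to the right, with medians of 2.45, 2.35 and 2.04, and voltage-gated channels lie to the left with a median of -0.89.

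Promoters are shown for the interferon-stimulated and proliferation lists, because nearly all of their members moved together and each list is known for a short promoter element. The windows are from RefSeq (GRCm38.p6) and hold 250 bases before a gene's start to 50 after it, of which the 250 upstream bases are printed. Interferon-stimulated genes are switched on by STAT and IRF proteins at elements of the form GAAANNGAA. Capitals mark matches on either strand, and neighbouring matches can overlap. Ifit1, an antiviral RNA-binding protein, has 3 matches (chr19:34640639-34640888, plus strand), and Isg15, a ubiquitin-like modifier, has 3 (chr4:156200819-156201068, minus strand).
Ifit1: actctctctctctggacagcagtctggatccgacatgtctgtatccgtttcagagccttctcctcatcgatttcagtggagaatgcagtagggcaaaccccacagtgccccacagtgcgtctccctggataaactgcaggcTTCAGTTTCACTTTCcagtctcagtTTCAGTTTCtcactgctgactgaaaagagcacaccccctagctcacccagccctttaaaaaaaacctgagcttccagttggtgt
Isg15: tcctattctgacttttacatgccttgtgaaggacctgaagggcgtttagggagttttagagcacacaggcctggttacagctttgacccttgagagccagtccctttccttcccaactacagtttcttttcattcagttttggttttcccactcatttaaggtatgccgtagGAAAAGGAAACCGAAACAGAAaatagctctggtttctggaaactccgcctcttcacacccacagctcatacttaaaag
The element was in the windows of 11 of the 16 interferon-stimulated genes with a window, beside 9.76% of 27025 genes. Cell cycle genes are known for the element TTTGAA, which holds them off in resting cells. Cdk1, the kinase that drives mitosis (chr10:69352913-69353162, minus strand), and Mki67, the source of the Ki-67 antigen (chr7:135716380-135716629, minus strand), have 2 matches each, marked in the same way.
Cdk1: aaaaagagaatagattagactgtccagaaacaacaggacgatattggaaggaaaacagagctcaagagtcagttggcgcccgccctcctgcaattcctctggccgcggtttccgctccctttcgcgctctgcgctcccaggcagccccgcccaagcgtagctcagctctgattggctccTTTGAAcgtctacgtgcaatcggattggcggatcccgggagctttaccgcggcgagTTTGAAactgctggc
Mki67: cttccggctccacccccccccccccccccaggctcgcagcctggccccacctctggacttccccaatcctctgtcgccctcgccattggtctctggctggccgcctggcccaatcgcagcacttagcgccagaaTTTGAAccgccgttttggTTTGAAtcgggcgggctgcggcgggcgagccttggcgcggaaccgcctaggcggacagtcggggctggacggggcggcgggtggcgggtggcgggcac
It was in the windows of 10 of 22 proliferation genes, beside 20.2% of all genes. The sterol element TCACNCCAC, searched in the same way in the cholesterol synthesis and control genes, was in the windows of 1 of 16, beside 1.44% of all genes, and no promoter of that list is printed. A match is a run of letters and not a measured site.

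Phagocyte genes rose in nearly all cases. Of 24 genes for lysosomes and lipid handling, 22 rose and none fell, with a median log2 change of 2.45, and library 452 lay above every uninjured library in 22 of them (33.8% of all genes did so). Cd68, a lysosomal membrane protein, went from 7.8, 7.46, 5.89 and 6.58 CPM to 76.7, 104, 126 and 44.4, a log2 change of 3.67 ± 0.35 (adjusted p by edgeR 2.43e-05). The lowest lesion, 564, still lay several times above the highest uninjured library. Lgals3, a lectin of activated macrophages, rose by 4.22, and Trem2, a lipid-sensing receptor, by 3.24 on the log2 scale. The proteases Ctsd and Ctss went from means of 400 ± 29.1 and 74.9 ± 5.4 CPM to 2160 ± 628 and 410 ± 85 (SD, n = 4). Library 564 was the lowest lesion for Cd68, Ctsd, Ctss, Trem2 and Gpnmb. Acp5 and Ctsk, phosphatase and protease of bone-resorbing cells, did not pass. Ctsk was at 16.9, 9.08, 10.3 and 9.92 CPM in uninjured cord and 12.3, 13.5, 10.7 and 11.3 in tamoxifen lesions, but its mean was 59.9 ± 22.7 CPM in the vehicle lesions, a difference between the lesion groups of -2.33 ± 0.27 (adjusted p by edgeR 0.000725). In the vehicle lesions all 24 of the list rose, with a median of 2.90, and 3 were lower after tamoxifen than after vehicle (Ctsk, Itgax and Axl).

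Microglial identity genes rose as well. Of 14 homeostatic microglia markers, 12 rose in the tamoxifen lesions, with a median of 1.37. Cx3cr1, the fractalkine receptor, went from 55.9, 47.5, 51.8 and 46.8 to 179, 148, 194 and 131 CPM. The purinergic receptor P2ry12 went from 31.7, 26.1, 30.2 and 29.1 to 60.5, 43.9, 62.3 and 59.1 CPM (0.95 ± 0.19 on the log2 scale), and Tmem119 from 29.5, 22.4, 21.6 and 23.7 to 37.4, 38.6, 44.2 and 34.1 (0.67 ± 0.17). These 2 genes, which set microglia apart from blood-derived macrophages, changed less than Cd68 or Trem2. Sall1, a transcription factor of microglia, had a change of -0.06 ± 0.09 with adjusted p 0.617 by edgeR. Tmem119 was the member lower after tamoxifen than after vehicle (-0.64 ± 0.16, adjusted p by edgeR 0.022). Of 13 border macrophage and alternative activation genes, 5 rose, among them Msr1, a scavenger receptor, and Ms4a7, with 9.35, 22.8, 36.3 and 11.9 and 4.19, 11.9, 10.8 and 3.12 CPM in the lesions and at most 1.89 and 0.514 in uninjured cord. Between the lesion groups Arg1 was higher after tamoxifen (2.43 ± 0.69, adjusted p by edgeR 0.0329), while Igf1, a growth factor, and Il1rn, which blocks the interleukin-1 receptor, were lower (-1.44 ± 0.42 and -1.77 ± 0.53). The values of Arg1 differed among the lesions. Its 4 values, 0.719, 7.55, 23.2 and 8.45 CPM, put library 452 near the uninjured range of 0.115 to 0.439, and with 452 as the only tamoxifen library 2 of the 13 genes rose.

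All 15 Fc receptors and their signalling partners rose, with a median of 2.35, and all 15 rose with library 452 as the only tamoxifen library. The Fc receptors bind antibody-coated material, and the list also holds lectin receptors such as Cd22 and kinases and phosphatases of myeloid signalling. Fcgr2b, the inhibitory Fc receptor, went from 4.02, 3.94, 3.16 and 1.84 to 28.3, 34.5, 49.5 and 13.1 CPM, and the kinase Lyn from 9.41, 10.3, 7.21 and 6.58 to 40.4, 32.1, 40.1 and 27.6. Ptpn6, the phosphatase SHP-1, rose by 2.34 on the log2 scale. The 4 lesions lay above the 4 uninjured libraries in all 15 genes (21.4% of all genes were separated in this way), and edgeR called no difference between the lesion groups (3 of 15 at an unadjusted p under 0.05). Of 15 complement genes, 11 rose. C1qa, C1qb and C1qc, the chains of the recognition molecule C1q, went from means of 40.8 ± 5.82, 38.5 ± 6.59 and 35 ± 6.26 CPM to 267 ± 52.3, 260 ± 53.2 and 219 ± 44.5 (SD, n = 4). Their log2 changes were 2.71, 2.76 and 2.65. The C3a receptor gene C3ar1 rose by 3.81, whereas C3 itself was at 189, 192, 183 and 200 CPM in uninjured cord and 474, 265, 264 and 188 in the lesions, with library 564 inside the uninjured range (adjusted p by edgeR 0.0696). C1ra, C1s, C2, C3, C4b and Serping1 were lower after tamoxifen than after vehicle, the largest difference being that of C1s, a complement protease (-2.15 ± 0.27).

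Of 19 cytokine and chemokine genes tested, 16 rose and none fell, and all 19 rose in the vehicle lesions. Most were near the detection limit in uninjured cord. Ccl3, a chemokine of activated microglia, was at 0.459, 0.0857, 0.176 and 0.0878 CPM there and 10.2, 4.29, 3.21 and 3.12 CPM in the lesions, and Ccl2, which draws monocytes, at 0, 0.0857, 0.0879 and 0 and 2.28, 2.8, 1.04 and 2.94. The chemokine receptor Cxcr4 rose by 2.16 ± 0.30 on the log2 scale. Csf1, the growth factor of microglia, went from 71.5, 76.8, 78.4 and 78.2 to 145, 140, 156 and 107 CPM. Ccl7, Ccl8 and Cxcl12 did not pass. Between the lesion groups edgeR called none of the 19, and 4 had an unadjusted p under 0.05.

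Interferon-stimulated genes rose in 19 of 21 cases, with a median of 1.55. Irf8, a myeloid transcription factor, went from 10.6, 7.54, 8.96 and 5.62 to 66.5, 37.1, 46.2 and 26.5 CPM (2.44 ± 0.27). Ifit1, whose promoter is printed above, went from 5.51, 4.46, 4.13 and 3.86 to 29.1, 7.46, 7.72 and 9.74 CPM, and Isg15 from 2.52, 1.29, 1.76 and 1.14 to 9.71, 2.61, 3.99 and 3.4. In both, library 452 lay well above the other 3 lesions. Gbp3, an interferon-induced GTPase, and Bst2, which tethers virus particles, rose by 1.51 and 2.19. Rsad2 and Stat2 did not pass. Library 452 exceeded every uninjured library in all 21 genes, the 4 lesions together in 16. Without the 2 uninjured libraries that held muscle transcripts, 10 of the 21 passed. The vehicle lesions had 17 of 21 higher, with a median of 1.68, and between the lesion groups edgeR called none, with 0 at an unadjusted p under 0.05.

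Antigen presentation genes were also highest in library 452. Of 17 tested, 11 rose, and 15 rose with 452 as the only tamoxifen library. H2-K1, a class I heavy chain, went from 22.3, 19.8, 16.6 and 21.4 to 110, 109, 98.5 and 67.7 CPM (2.27 ± 0.23) and B2m, its partner, from 112, 87.1, 77.9 and 62.1 to 283, 227, 231 and 180. In both, all 4 lesions lay above all uninjured libraries. The class II genes differed: Cd74, the invariant chain, was at 27, 42.8, 22.6 and 1.93 CPM in uninjured cord and at 184, 28, 12.7 and 11.3 CPM in the lesions, so 513, 549 and 564 lay within the uninjured range and 452 far above it (adjusted p by edgeR 0.231). H2-Aa and H2-Ab1 had the same order of libraries, with 63.6, 13.4, 5.64 and 5.33 and 64.6, 12.4, 7.02 and 5.51 CPM. Few lymphocyte transcripts were counted: 14 of 18 lymphocyte markers, among them Cd3e, Cd8a and Cd4, were too low to test, and edgeR and DESeq2 called none of the other 4 (Lck, Ighm, Jchain and Ltb), with 0 at an unadjusted p under 0.05 in edgeR. These 4 summed to 20.1 to 34.7 CPM in uninjured cord and 8.06 to 33.7 in the lesions. Without library 452, Ighm, the heavy chain of IgM, fell by 1.29 (adjusted p by edgeR 0.00301), and in the vehicle lesions Jchain, which joins antibody units, rose by 1.59 (adjusted p 0.0292). Of 9 neutrophil and mast cell genes, Csf3r, a cytokine receptor also made by microglia, rose (2.10 ± 0.19) and Kit fell by 0.68. Kit, which marks mast cells but is also made in the nervous system, lost its call without 467, 513 or 549, at -0.59, -0.59 and -0.50, and with 452 alone, at -0.27. The granule genes S100a8, S100a9 and Ngp were highest in uninjured library 376, at 12.7, 24.1 and 22.3 CPM, and did not pass.

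**Figure D2:**
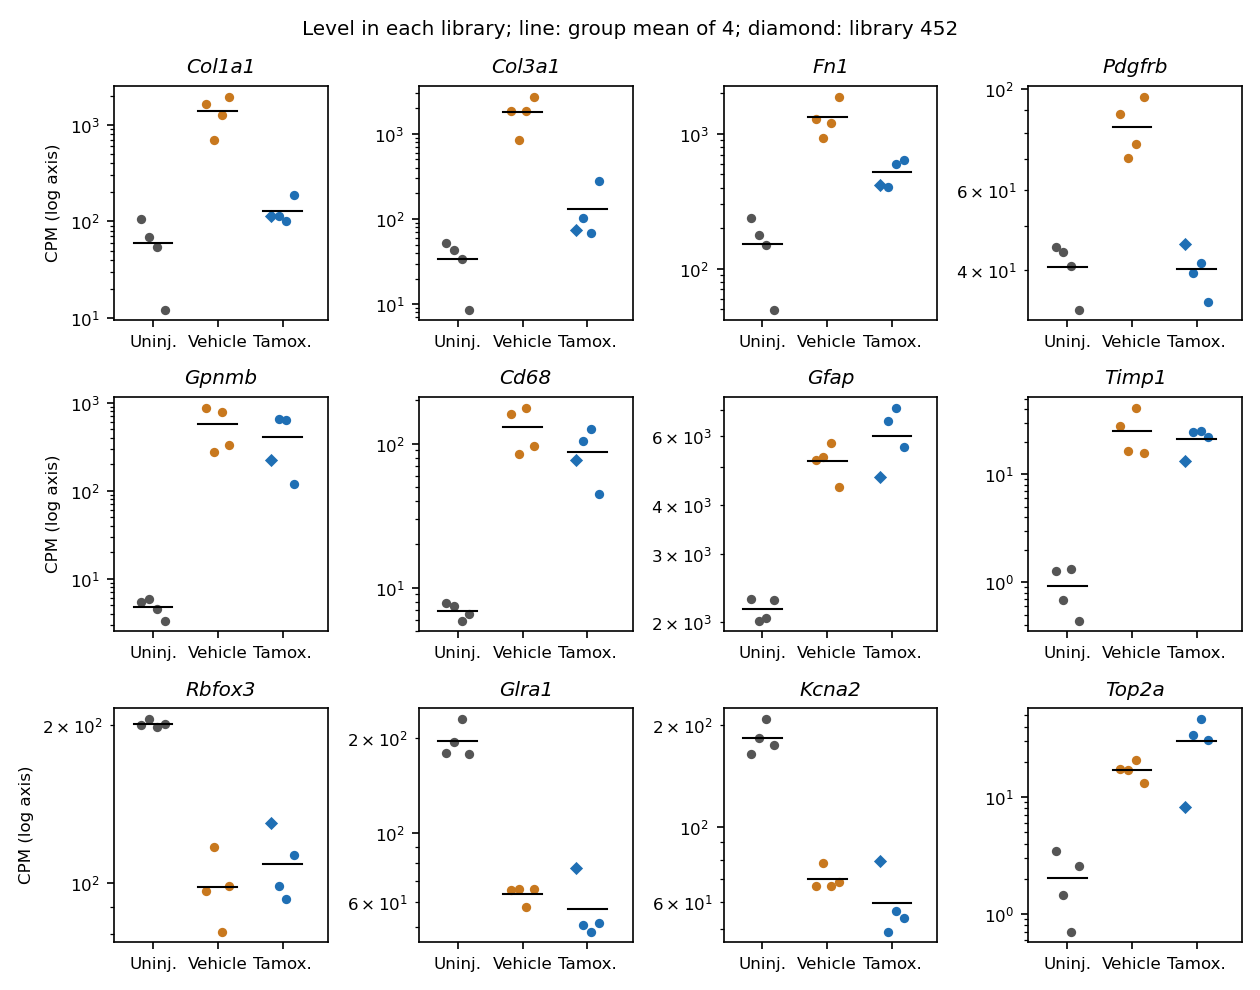
CPM of 12 genes on a log axis in each uninjured, vehicle lesion and tamoxifen lesion library, with the mean of 4 as a line and library 452 as a diamond. Gpnmb, Cd68, Gfap and Timp1 are raised and Rbfox3, Glra1 and Kcna2 lowered in both lesion groups, Col1a1, Col3a1 and Fn1 are far higher in vehicle lesions, and Pdgfrb in tamoxifen lesions (34.1 to 45.8 CPM) overlaps uninjured cord (32.8 to 45.0).

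Reactive astrocyte genes rose in 19 of 20 cases, with a median of 2.04, beside 20 of 20 and 2.19 in the vehicle lesions. Gfap, the astrocyte intermediate filament, went from 2300, 2020, 2050 and 2290 to 4720, 6560, 7110 and 5650 CPM, a log2 change of 1.47 ± 0.12 (adjusted p by edgeR 1.48e-05), and its difference between lesion groups was 0.22 ± 0.12 (adjusted p 0.223). Vim, a filament shared with other dividing and mesenchymal cells, went from 141, 133, 110 and 81.4 to 490, 817, 1270 and 918 CPM. Serpina3n, a secreted protease inhibitor, went from 81.3, 90.1, 77.8 and 70.8 to 392, 379, 446 and 296 CPM. Ptx3 and S100a6, a pentraxin and a calcium-binding protein, rose by 3.80 and 2.26 on the log2 scale. All 20 genes were above every uninjured library in each of the 4 lesions. Cp, the copper oxidase ceruloplasmin, was the member that did not pass (0.74 ± 0.31, adjusted p by edgeR 0.0674). Uninjured 467 had 15.5 CPM of it, beside 55.4 to 70.4 in the other uninjured libraries. Ptx3 and Anxa2 were lower after tamoxifen than after vehicle. In 17 astrocyte transport and housekeeping genes, 9 rose and 1 fell, with a median of 0.28, and with library 452 alone 5 rose and none fell. Aqp4, the water channel of astrocyte endfeet, went from 652, 561, 594 and 762 to 1350, 1970, 2010 and 1230 CPM (1.35 ± 0.18), while the glutamate transporter Slc1a2 was at means of 2050 ± 168 and 2120 ± 229 (adjusted p by edgeR 0.665). Slc1a3, whose promoter drives Cre in this line, went from 155, 124, 139 and 141 to 195, 209, 241 and 206 CPM. Slc7a10, a neutral amino acid transporter, fell by 0.33. Gja1, Kcnj10, Aldoc, Slc7a10 and Gpc5 were higher after tamoxifen than after vehicle, by 0.28 to 0.39 on the log2 scale.

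Cell division genes rose widely, but unevenly across the lesions. Of 27 proliferation genes, 24 rose and none fell, with a median of 2.02. In the vehicle lesions 20 rose and 1 fell, with a median of 1.34, and between the lesion groups edgeR called none, with 7 at an unadjusted p under 0.05. Top2a, which untangles DNA before mitosis, went from 3.44, 1.46, 0.703 and 2.55 CPM to 8.27, 34.2, 46.9 and 31, and Mki67 from 7.12, 1.63, 2.55 and 2.02 to 8.75, 23, 41.1 and 20. Cdk1 and its partner Ccna2 went from means of 0.664 ± 0.414 and 1.37 ± 0.319 CPM to 8.31 ± 3.64 and 9.32 ± 4.2 (SD, n = 4). Mcm3, part of the replicative helicase, rose by 1.33 on the log2 scale. Library 452 was the lowest lesion in each of Top2a, Mki67, Cdk1, Ccna2 and Mcm3. With 452 as the only tamoxifen library, 4 of the 27 rose, and 452 lay above every uninjured library in 16. The G1 and S phase regulators Ccne1 and E2f1 and the nucleotide enzyme Tyms did not pass. Ccne1 was at 16.9, 18.3, 19.1 and 17.2 CPM in uninjured cord and 12, 16.8, 14.7 and 17.4 in the lesions.

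**Figure D3:**
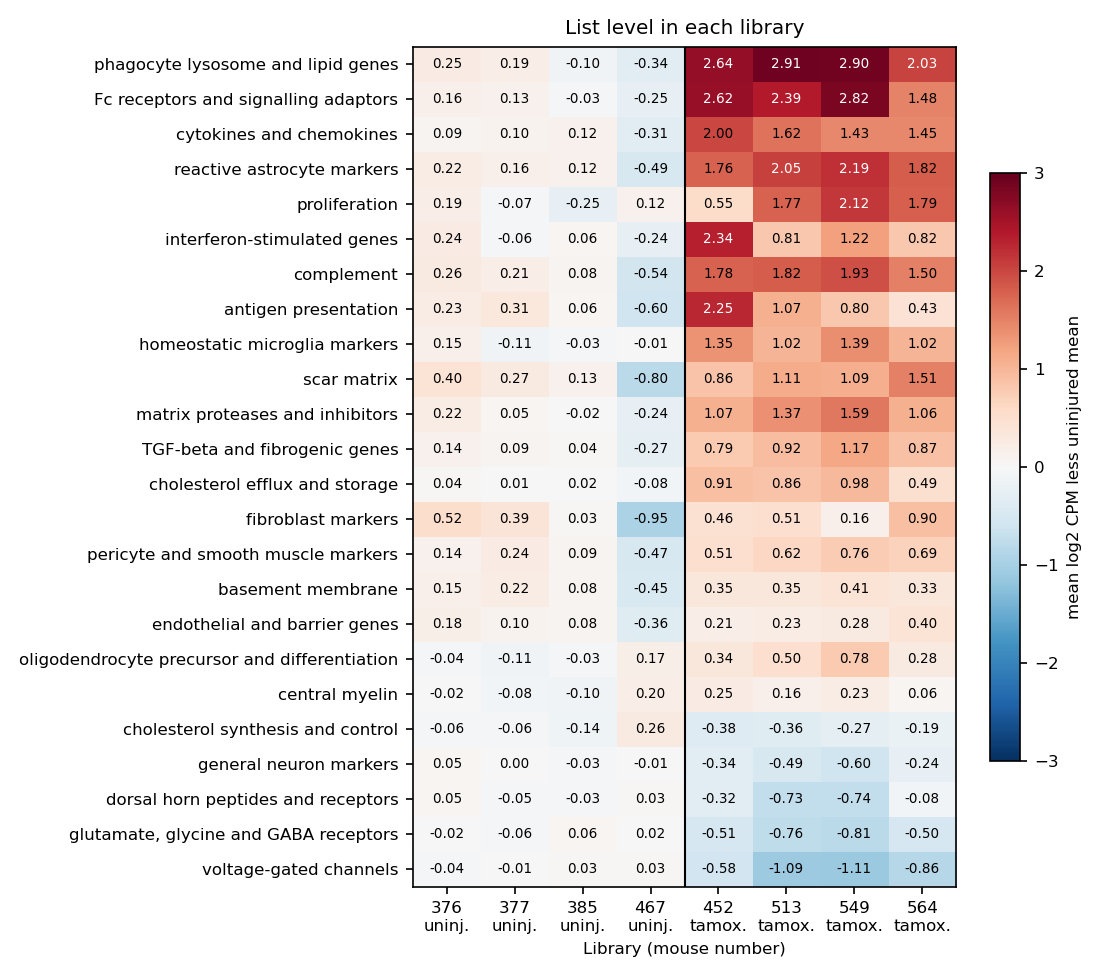
Mean log2 CPM of each list in each library less the mean of the 4 uninjured libraries, in colour and in figures. Library 452 has 2.34 for interferon-stimulated genes and 2.25 for antigen presentation, above the other lesions, and 0.55 for proliferation, below their 1.77 to 2.12; uninjured 467 has -0.80 for scar matrix and -0.95 for fibroblast markers.

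Matrix genes of the scar rose to a smaller extent than in the vehicle lesions. Of 27 scar matrix genes, 17 rose and none fell after tamoxifen, with a median of 1.04, beside 26 and a median of 3.62 in the vehicle lesions. Between the lesion groups 23 were lower after tamoxifen and none higher, with a median of -2.24. With library 452 as the only tamoxifen library 3 rose, although 452 lay above every uninjured library in 23, without 467, whose matrix transcripts were lowest, 13 rose, and without the 2 uninjured libraries that held muscle, 10. Fn1, the adhesive glycoprotein fibronectin, went from 236, 178, 150 and 49.5 CPM to 421, 406, 600 and 642, a log2 change of 1.76 ± 0.37 (adjusted p by edgeR 0.00195), beside 1290, 925, 1200 and 1890 in the vehicle lesions. Col1a1, the main fibrillar collagen chain, was at 106, 69, 53.8 and 12.2 CPM in uninjured cord and 113, 114, 101 and 189 in tamoxifen lesions (1.11 ± 0.48, adjusted p by edgeR 0.0712). It reached 1630, 698, 1270 and 1950 CPM in the vehicle lesions, so the lesion groups were far apart (-3.42 ± 0.50). With library 452 alone the change of Fn1 was 1.46 with an adjusted p by edgeR of 0.114. Without uninjured library 376 that of Col1a1 was 1.52 with an adjusted p by edgeR of 0.0265. Col3a1 went from 51.8, 43.4, 33.7 and 8.6 to 74.7, 104, 67.7 and 278 CPM, with library 564 well above the other 3, beside a mean of 1820 ± 772 (SD, n = 4) after vehicle.

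The largest changes of the list were those of Tnc, Lox and Postn. Tnc, the injury-induced glycoprotein tenascin-C, went from 11, 10.5, 9.31 and 9.04 to 15.2, 47.7, 102 and 61.4 CPM (2.52 ± 0.45), with 452 the lowest lesion. Its difference from the vehicle lesions was -0.93 ± 0.40 (adjusted p by edgeR 0.121). Loxl2 and Lox, which crosslink collagen, went from means of 10 ± 1.34 and 3.14 ± 1.79 CPM to 37.9 ± 11.2 and 14.7 ± 6.84 (SD, n = 4). Postn, the matricellular protein periostin, went from 3.67, 3.26, 3.43 and 1.58 to 15.6, 13.7, 9.02 and 12.1 CPM, beside a mean of 251 ± 171 (SD, n = 4) in the vehicle lesions. Thbs2, a matricellular protein, went from 48.5, 45.1, 41.6 and 33 to 86.5, 102, 117 and 118 CPM, and Sparc, another, from 1200, 1190, 1130 and 1070 to 1670, 1940, 2010 and 1950. Col12a1, a fibril-associated collagen, rose by 1.66 on the log2 scale. By contrast Col6a3, Lum and Fmod did not pass, with changes of 0.27 ± 0.37, 0.39 ± 0.53 and -0.01 ± 0.42. Col6a3 was at 16.5, 16.4, 17.3 and 9.66 CPM in uninjured cord and 16.7, 12.4, 16 and 27 in the tamoxifen lesions, beside a mean of 227 ± 99.1 in the vehicle lesions. The meninges also make collagen. The summed CPM of 18 meningeal and barrier cell genes ran from 457 to 1590 in uninjured cord, lowest in 467 as for the matrix genes, and from 941 to 1500 in the tamoxifen lesions. In the vehicle lesions it ran from 1200 to 1710. Skeletal muscle genes summed to 96.7 to 1010 CPM in the vehicle lesions, beside 77.4 to 138 after tamoxifen. The part of these neighbouring tissues in the result was not tested.

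Basement membrane genes rose in 7 of 15 cases after tamoxifen and in 14 of 15 after vehicle, and 14 were lower after tamoxifen than after vehicle. Col4a5 went from 13.7, 14.5, 15.4 and 11.2 to 24.8, 28.6, 34.2 and 27 CPM (1.07 ± 0.12) and Col4a1 from 51.1, 54.1, 54 and 38.4 to 52.7, 73.4, 111 and 81.8. Library 452 was the lowest of the lesions in both, and with it alone 1 of the 15 rose. Nid1, which links laminin to collagen IV, had a change of 0.01 ± 0.14 after tamoxifen and 1.33 ± 0.14 after vehicle. Of 19 proteases and inhibitors tested, 13 rose. Timp1, an inhibitor of metalloproteinases, went from 1.26, 0.686, 1.32 and 0.439 to 13.1, 24.4, 24.9 and 21.9 CPM, a log2 change of 4.52 ± 0.43, and its difference between lesion groups was -0.26 ± 0.30 (adjusted p by edgeR 0.582). Plaur, the urokinase receptor, Mmp19 and Adamts1 rose by 3.35, 2.11 and 1.00. In the fit on 452, 6 of the 19 rose. Mmp12, the elastase of macrophages, was at most 0.115 CPM in uninjured cord and 6.71, 2.7, 6.85 and 1.65 CPM in the tamoxifen lesions, beside 31.7, 6.79, 41.3 and 21.4 in the vehicle lesions.

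Fibroblast markers rose in 3 of 17 cases after tamoxifen and in 16 of 17 after vehicle, with medians of 0.59 and 2.39. The share after tamoxifen was below that of all genes (26.3%). Of the 17, 13 were lower after tamoxifen than after vehicle. Ccdc80, a secreted matrix protein, went from 15.4, 15.6, 15.9 and 13.2 to 31.2, 34.5, 30.3 and 44.7 CPM (1.23 ± 0.22). Fbln2, an elastic fibre protein, and Pi16, a marker of adventitial fibroblasts, rose by 1.36 and 1.10. With library 452 alone their changes were 1.05, 0.55 and 1.38, with adjusted p by edgeR of 0.0723, 0.538 and 0.189. Pi16 lost its call when any of 377, 385, 467, 452, 513 or 564 was left out, with log2 changes from 0.87 to 1.13. Dpt and Ogn, small matrix proteins of fibroblasts, were at 15.4, 12.5, 12.5 and 1.67 and 45.7, 44.5, 23.9 and 1.32 CPM in uninjured cord and 10.9, 14.1, 4.68 and 14.1 and 27.4, 31.7, 11.7 and 27.6 in the tamoxifen lesions. Pdgfra, which marks fibroblasts and oligodendrocyte precursors, was at 92.3, 90.2, 84 and 84.3 and 91.3, 95.6, 131 and 98.9 CPM (adjusted p by edgeR 0.0876).

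The mural cell genes did not move as a block. Pdgfrb, the receptor that defines pericytes, was at 45, 44, 40.9 and 32.8 CPM in uninjured cord and 45.8, 39.4, 41.6 and 34.1 in the tamoxifen lesions, a log2 change of -0.02 ± 0.13 (adjusted p by edgeR 0.924). In the vehicle lesions it was at 88.2, 70.6, 75.7 and 96.1 CPM, and the lesion groups differed by -1.04 ± 0.12 (adjusted p by edgeR 0.000736). Of 16 pericyte and smooth muscle genes, 7 rose after tamoxifen and 12 after vehicle. Rgs5, a marker of capillary pericytes, went from 136, 117, 128 and 123 to 173, 179, 194 and 178 CPM (0.52 ± 0.06) and differed between lesion groups by 0.01 ± 0.06 (adjusted p by edgeR 0.93). The contractile genes Tagln and Cnn1 were higher in the lesions, Tagln at 18.1, 16.1, 18.1 and 8.78 CPM in uninjured cord and 30.6, 92.4, 124 and 123 in the lesions, with library 452 much the lowest. Acta2 and Myh11, also contractile, did not pass (0.55 ± 0.27 and -0.44 ± 0.26). Only 3 of the 16 rose with 452 alone. Anpep, an aminopeptidase of pericytes and myeloid cells, rose by 2.06, and Cspg4, shared with oligodendrocyte precursors, by 0.91. Of 16 endothelial and barrier genes, 3 rose (Esam, Eng and Pecam1) and none fell, a share of rises below that of all genes (26.3%). Pecam1, a junction protein, went from a mean of 33.8 ± 4.91 to 42.2 ± 6.47 CPM (0.32 ± 0.13, adjusted p by edgeR 0.0491), a call lost when any of 377, 385, 467, 513, 549 or 564 was left out, at 0.22 to 0.36. Cldn5, the main tight junction protein of brain vessels, had a change of 0.34 ± 0.15, which passed without 376 (0.44) or 513 (0.42), and without 376 the list had 5 rises. In the fit on 452, Esam, Eng and Pecam1 had changes of 0.33, 0.49 and 0.05, none of which passed.

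Growth factor genes of fibrosis still rose in part. Of 17 genes of the TGF-beta pathway and its neighbours 16 were tested: 10 rose after tamoxifen, 14 after vehicle, and 9 were lower after tamoxifen than after vehicle. The ligand gene Tgfb1 went from 8.84, 8.66, 7.12 and 6.94 to 31.3, 27.4, 34.8 and 18.6 CPM (1.83 ± 0.20) and the receptor gene Tgfbr1 from 49.1, 45.3, 47.6 and 44.9 to 148, 120, 134 and 94 (1.41 ± 0.15). Among genes that respond to matrix stiffness, Cyr61 went from 4.94, 5.74, 6.33 and 2.9 to 15.3, 42.8, 86.5 and 41.4 CPM, with 452 the lowest. Bmp1, which trims procollagen, rose by 0.98. Ltbp2, a latency protein, was at most 0.351 CPM in uninjured cord, 1.08, 3.08, 5.46 and 2.66 CPM in the tamoxifen lesions and 40.1, 14.1, 34.6 and 34.4 in the vehicle lesions. The PDGF ligands Pdgfa and Pdgfb did not pass.

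Inhibitory proteoglycans, which limit axon growth in the glial scar, went both ways. Of 15 genes for chondroitin sulphate proteoglycans, their linkers and their enzymes, 6 rose and 4 fell. The share of falls was near that of all genes (22.7%), and the share of rises was above theirs (26.3%). Vcan (versican) and Ncan (neurocan) went from 41.2, 36.3, 39.8 and 46.1 and 81.1, 83.3, 91 and 106 CPM to 68.7, 113, 169 and 75.9 and 91, 192, 369 and 148, highest in 549 and lowest in 452. Acan (aggrecan) and the link protein Hapln4, parts of the nets around neurons, went from 41.3, 40.4, 44 and 39.9 and 264, 258, 259 and 240 CPM to 26.8, 24.2, 20.4 and 22.1 and 179, 167, 148 and 170, and all 4 lesions lay below all 4 uninjured libraries (19.7% of all genes were separated in this direction). Bcan fell by 0.27 and Chst15, a sulphotransferase, by 0.48, a call lost without 376, 377, 385, 513 or 549, at -0.49 to -0.32. With 452 as the only tamoxifen library 1 rose and 1 fell, and without the uninjured libraries that held muscle 3 rose and 2 fell. Between the lesion groups 1 was higher and 1 lower after tamoxifen, Hapln1 (0.43 ± 0.12) and Acan (-0.31 ± 0.08).

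**Figure D4:**
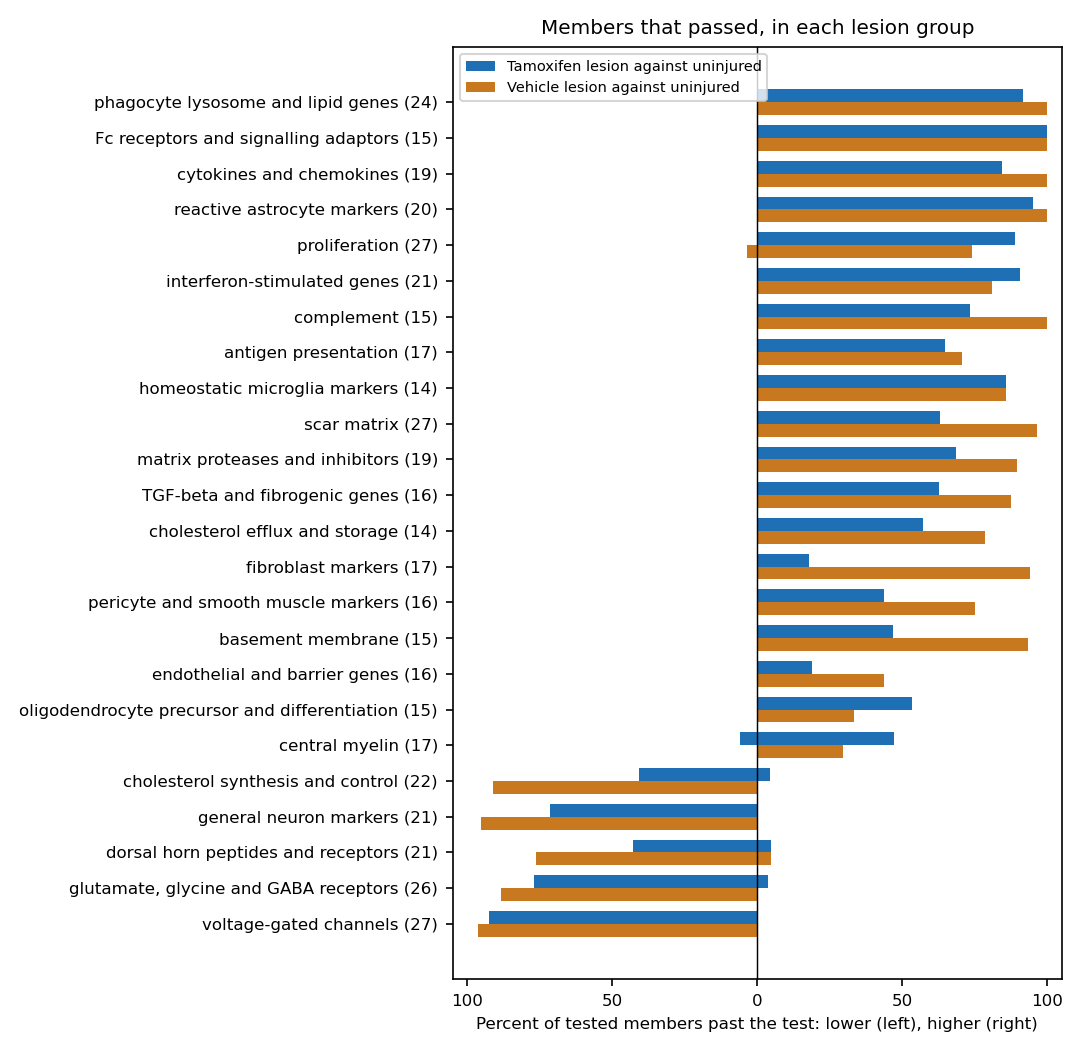
Percent of the tested genes of each list that were higher (right) or lower (left) at an edgeR adjusted p under 0.05, for tamoxifen lesions and for vehicle lesions against the same uninjured libraries. Fibroblast markers show a wide gap, 3 against 16 of 17, and Fc receptor genes none, 15 against 15 of 15.

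Neuronal genes fell in the tamoxifen lesions. Of 21 general neuron markers, 15 fell and none rose, with a median of -0.41. Rbfox3, the neuronal nuclear protein NeuN, went from 200, 206, 199 and 201 CPM to 130, 98.7, 93.1 and 113, a log2 change of -0.89 ± 0.11 (adjusted p by edgeR 8.89e-05), with 452 the highest of the lesions. Slc6a5, the glycine transporter of inhibitory neurons, went from 628, 645, 680 and 605 to 431, 354, 313 and 430 CPM. Slc17a6, the vesicular glutamate transporter of excitatory neurons, went from 267, 253, 252 and 260 to 188, 151, 132 and 205 CPM. The axonal neurofilament Nefm went from means of 1940 ± 115 to 1420 ± 121 CPM (SD, n = 4), and Elavl3 fell by 0.34. Nefl, Tubb3, Stmn2 and Gap43 did not pass, with changes between -0.12 and -0.03. In the vehicle lesions 20 of the 21 fell, with a median of -0.62, and 5 were higher after tamoxifen than after vehicle (Syt4, Stmn2, Tubb3, Elavl4 and Stmn3). With library 452 alone 5 of the 21 fell, although 452 lay below every uninjured library in 19 (32.4% of all genes did so).

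Receptor genes for fast transmission fell in 20 of 26 cases, with a median of -0.52. In the vehicle lesions 23 fell and none rose, with a median of -0.77. Between the lesion groups 4 were higher after tamoxifen and none lower. NMDA receptor genes fell in all 5 cases tested, from -2.39 for Grin2b to -0.57 for Grin2c. Grin1, the obligatory subunit, went from 253, 255, 244 and 230 to 156, 117, 106 and 130 CPM (-0.95 ± 0.12). AMPA receptor genes Gria1 to Gria4 fell by 0.35 to 0.64. For glycine, Glra1 fell by 1.79 and Glra3 by 1.37, and Glrb, the beta subunit, had a change of -0.13 ± 0.08. Gabrg1, a GABA receptor subunit found in glia as well as neurons, rose from 55.1, 50.9, 53.2 and 49.6 to 61.8, 83.2, 85.3 and 71.6 CPM and was the member that went the other way. Of the 26, 9 fell and none rose with 452 alone.

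Voltage-gated channel genes fell in 25 of 27 cases, with a median of -0.89, and in 26 of 27 in the vehicle lesions, with a median of -0.91. Kcna2, a potassium channel of the axon beside nodes of Ranvier, went from 164, 183, 209 and 175 CPM to 79.2, 49, 56.4 and 53.7 (-1.62 ± 0.13). The sodium channels of axons, Scn1a and Scn8a, fell by 0.80 and 0.97, and the calcium channel Cacna1e by 1.38. Kcnj6 fell by 1.72. Hcn2 and Kcnj3 did not pass, and Hcn2 had a change of 0.01 ± 0.08. Library 452 lay below every uninjured library in 26 of the 27 and was the highest lesion for Kcna2, Scn1a, Scn8a and Cacna1e, and with it alone 13 fell.

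Among dorsal horn peptides and receptors, 9 of 21 fell and 1 rose, with a median of -0.55. In the vehicle lesions 16 fell and 1 rose, with a median of -0.85. Between the lesion groups 1 was higher after tamoxifen and none lower. The opioid receptor genes Oprm1, Oprd1, Oprk1 and Oprl1 all fell, by 1.81, 1.28, 0.64 and 0.55. Tacr1, the substance P receptor, went from 23.3, 26.1, 24.3 and 24.7 to 15.7, 18.6, 14.4 and 16.7 CPM. Calcrl, a receptor for CGRP and adrenomedullin that vessels also make, rose by 0.63. The peptide genes Penk, Sst, Tac1 and Npy did not pass. Pdyn, the dynorphin precursor, was at 21.8, 18.6, 17.3 and 18.4 CPM in uninjured cord and 18.8, 19.6, 24.4 and 29.5 in tamoxifen lesions, above a vehicle mean of 10.8 ± 1.88 (1.11 ± 0.16, adjusted p by edgeR 0.00209). In the fit on 452, 1 fell. Motor neuron and cholinergic genes were mixed, with 2 of 12 higher and 3 lower, shares below and near those of all genes (26.3% and 22.7%). Calca, the CGRP precursor, went from 29.6, 48.6, 30.1 and 26 to 83.5, 112, 117 and 76.3 CPM and Calcb, a related peptide, rose by 0.85, a call lost without 376, 385, 467, 513 or 549, at 0.61 to 0.82. Without 452, 4 of the 12 rose, and with 452 alone 1 did. Esrrg, Slit3 and Mnx1 fell by 0.60, 0.83 and 0.53, and Chat, which makes acetylcholine, was at 38.4, 48, 47.4 and 41.3 and 29.8, 38, 44.9 and 31.6 CPM (adjusted p by edgeR 0.0692).

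Cholesterol handling changed on both sides. Of 22 synthesis and control genes tested, 9 fell and 1 rose after tamoxifen, with a median of -0.29, beside 20 that fell after vehicle, with a median of -0.69. After tamoxifen 10 were higher than after vehicle. Srebf2, the transcription factor of the pathway, went from 281, 260, 257 and 290 to 212, 174, 194 and 203 CPM (-0.48 ± 0.08). Library 452 lay below every uninjured library in 19 of the 22, while with it alone 1 passed, and 5 fell without uninjured 467. Ebp rose by 0.27, a call that was lost when any of 376, 377, 385, 513 or 549 was left out, at 0.23 to 0.26. Hmgcs1 had no counts in the table and was not tested. Of 14 efflux and storage genes, 8 rose and none fell. Abca1, which exports cholesterol to lipoproteins, went from 70.7, 72.3, 78 and 65.7 to 298, 311, 391 and 178 CPM (2.04 ± 0.26). Npc2, which moves cholesterol out of lysosomes, went from 152, 141, 135 and 146 to 255, 293, 293 and 227 CPM, and Ch25h was at most 0.574 CPM in uninjured cord and 12, 5.03, 5.03 and 3.21 CPM in the lesions.

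Myelin genes moved little. Of 17 central myelin genes, 8 rose and 1 fell, with a median of 0.22. Mbp, the basic protein of the sheath, was at 8200, 7130, 7020 and 8190 CPM in uninjured cord and 8360, 8140, 8130 and 7960 in the lesions (0.09 ± 0.08, adjusted p by edgeR 0.35). Cldn11, a junction protein of myelin, went from 482, 452, 402 and 519 to 679, 693, 780 and 614 CPM, and Mog and Cnp rose by 0.40 and 0.33. Plekhh1 fell by 0.39. Without uninjured 377 and 385, 2 myelin genes rose, with library 452 alone 3 and none fell, and when 377, 385 or 452 was left out, 5 rose. Oligodendrocyte precursor and differentiation genes rose in 8 of 15 cases. Gpr17, a receptor of cells between precursor and oligodendrocyte, went from 62.3, 40.3, 57.6 and 99.5 to 136, 290, 294 and 153 CPM (1.75 ± 0.31). Neu4 and Tcf7l2, of the same stage, rose by 1.21 and 0.99, while the lineage factors Olig1, Olig2 and Sox10 did not pass. With 452 alone 2 of the 15 rose, and without 377 and 385, 4. Of 14 ependymal and motile cilia genes, 2 fell, the axonemal protein Hydin (-1.23 ± 0.32) and Rsph4a (-0.42 ± 0.16), a call lost without any 1 of the libraries other than 564, at -0.47 to -0.33. This share is below that of falls among all genes (22.7%), and with 452 alone neither passed, with changes of -0.75 and -0.83 (adjusted p by edgeR 0.376 and 0.0721). Foxj1, the regulator of motile cilia, was at 37.5, 38.1, 44.2 and 44.2 and 40.4, 48.7, 53.2 and 41.6 CPM.

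Genes tied to axon regrowth rose in 11 of 23 cases and 1 fell. Atf3, a transcription factor induced by axon injury, went from 1.15, 1.54, 1.85 and 1.23 to 15.9, 25.2, 19.9 and 13.3 CPM (3.67 ± 0.26), and Sprr1a, an injury-induced protein, was at 0.344, 0.857, 0.176 and 0.176 CPM in uninjured cord and 9.11, 9.41, 10.1 and 6.34 in the lesions. Socs3, which limits the response to gp130 cytokines, and Cebpd rose by 2.60 and 2.82. Gap43, Klf7 and Sox11 did not pass. Galr1, a galanin receptor, fell by 1.12, a call lost without 376, 377, 385, 467, 513 or 549, at -1.15 to -0.84. Without 452 or without 564, 3 of the list fell, and with library 452 alone 7 rose and none fell. In iron and haem handling 6 of 11 rose and 1 fell: Hmox1, which breaks down haem, went from 5.97, 6.86, 8.61 and 5.53 to 24.9, 43.6, 55.4 and 23.2 CPM, and Slc11a1, a phagosomal metal transporter, from 5.39, 5.83, 5.89 and 3.07 to 49.1, 32.5, 44.7 and 19.5. Ftl1 and Trf rose by 1.36 and 1.11, and Slc11a2 fell by 0.13, a call lost without 377, 385, 467, 513, 549 or 564, at -0.14 to -0.11. With 452 alone 4 rose and none fell.

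Immediate early genes were split. Of 19 tested, 8 rose and 4 fell, a share of falls near that of all genes (22.7%). Junb went from 12.5, 12.3, 13.7 and 14.3 to 20.9, 24.6, 28.4 and 24.7 CPM (0.90 ± 0.11), and Ier2 and Btg2 rose by 0.59 and 0.57. The activity-dependent neuronal genes Npas4, Egr3, Arc and Egr1 fell by 1.5, 1.48, 0.64 and 0.46, and Egr1 lost its call when any of 376, 377, 467, 513 or 549 was left out, at -0.46 to -0.33. Of 19, 7 were lower after tamoxifen than after vehicle and none higher. With library 452 alone 2 rose and none fell, and Npas4 and Egr3 had changes of -1.38 and -1.21 with adjusted p by edgeR of 0.123 and 0.102. ERK feedback genes, which report on signalling below Ras, rose in 4 of 13 cases and fell in 3, shares near those of all genes (26.3% and 22.7%), and none passed with 452 alone. Ccnd1 (cyclin D1) went from 51.5, 43.5, 48.8 and 54.3 to 68.9, 121, 166 and 130 CPM, Dusp6 and Etv5 rose by 0.37 and 0.34, and Spry4, Spred2 and Dusp4 fell by 0.52, 0.36 and 0.69. With 452 alone Ccnd1 had a change of 0.48 (adjusted p by edgeR 0.0669) and Etv5 one of 0.21 (0.165), while Spry4, Spred2 and Dusp4 had changes of -0.38, -0.39 and -0.51 (0.17, 0.0763 and 0.23). Nras was at 10.9, 9.08, 14.8 and 15 CPM in uninjured cord and 17.5, 20.5, 14.7 and 19 in the lesions (0.53 ± 0.18, adjusted p by edgeR 0.0304), a call lost when any of 376, 377, 513 or 564 was left out, at 0.39 to 0.50.

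Markers of neighbouring tissues varied widely among the uninjured libraries. Skeletal muscle genes summed to 122, 1180, 290 and 93.9 CPM in uninjured cord and 97.4, 112, 77.4 and 138 in the tamoxifen lesions. In the vehicle lesions they summed to 96.7 to 1010 CPM. After tamoxifen 7 of the 15 were lower than after vehicle (8.33% of all genes were), with a median of -3.44. Myh4, a fast myosin, was at 0.115, 356, 65.9 and 0.439 and 0.12, 0.28, 0 and 4.59 CPM, and Acta1 at 1.61, 187, 32.8 and 1.23 and 2.88, 6.24, 1.47 and 7.71. Of 15 muscle genes 6 fell in edgeR and 8 in DESeq2, against 8 at an unadjusted p under 0.05 in edgeR. None fell in limma on the authors' FPKM, and none in edgeR without both uninjured 377 and 385. No call was left with 452 alone or without 377, where Myh4 and Acta1 had changes of -4.11 and -1.40 (adjusted p by edgeR 0.0862 and 0.391), and 1 was left without 513 or without 549. The 14 nerve root and Schwann cell genes summed to 677, 799, 548 and 352 CPM and to 534, 667, 624 and 661. Of these 3 rose, a share below that of all genes (26.3%), and 1 did without 385 or 513 and none with 452 alone. Cdh19 and Pmp22, which oligodendrocytes also make, rose by 0.61 and 0.46, and Egr2, a regulator of Schwann cells and macrophages, by 1.17. Pmp22 lost its call without 385, 467, 513 or 549, at 0.32 to 0.44, and Egr2 without 376, 385, 452 or 513, at 0.93 to 1.24. Of 18 meningeal and barrier cell genes 2 rose (1 with 452 alone), Aldh1a1 (1.01 ± 0.14) and Igfbp2 (0.93 ± 0.34), the latter not without 377, 385, 467, 513 or 549, at 0.64 to 1.02. For the meningeal list the share of rises was below that of all genes (26.3%). Slc6a13, a GABA transporter of the meninges, was at 35.2, 31.5, 23.9 and 1.93 and 15.1, 21, 5.38 and 15.2 CPM, so 467 and 549 were the poorest in it. Lymphatic and venous genes rose in 3 of 11 cases (Icam1, Vcam1 and Pdpn, by 2.07, 0.97 and 1.38), a share near that of all genes (26.3%). Reln fell by 0.26, a call lost without any 1 of the libraries other than 377 or 452, at -0.28 to -0.21. In the authors' FPKM the change of Reln had the opposite sign (0.25 to 0.26, adjusted p by limma 0.0514 to 0.0726), and with 452 alone it was 0.03. Of 15 bone, cartilage and fat genes Col2a1, Col9a1 and Matn1 rose, by 0.89, 1.31 and 0.95, of which 1 was left without 377, 385 or 513 and none with 452 alone, and Acan fell. The 3 rises of this list were a share below that of all genes (26.3%). After tamoxifen 9 of these 15 genes were lower than after vehicle, with a median of -2.08. The fat gene Fabp4 was at 5.05, 11.3, 2.72 and 2.28 CPM in uninjured cord and 2.64, 4.57, 2.77 and 1.47 in the tamoxifen lesions.

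Position along the cord was read from Hox genes, whose expression marks body level. Of 17 tested, 7 fell and none rose, with a median of -0.25. Hoxb8 went from 95, 77.5, 74.3 and 78.6 to 55.6, 42.3, 35.6 and 56.1 CPM (-0.78 ± 0.16) and Hoxd9 from 7.92, 8.91, 6.68 and 7.37 to 3.36, 5.59, 4.08 and 3.77. Hoxc10, which marks lower levels, was at 2.3, 2.14, 2.2 and 9.92 CPM in uninjured cord, highest in 467, and 1.32, 0.373, 0.607 and 1.29 in the lesions. Hoxc8 was at 191, 185, 182 and 97 CPM in uninjured cord, lowest in 467. The vehicle lesions had 9 of 17 lower and 1 higher than uninjured cord, and edgeR called none of the 17 between the lesion groups (1 at an unadjusted p under 0.05). Without 377, 385 or 549, 4 fell, and 1 did with library 452 alone. The part of cord level in the other results was not tested.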

How the data were processed

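RNA of cord tissue from 12 mice was sequenced. Per the submitters' processing notes the tools were TopHat, Picard, Cufflinks and HTSeq with mouse build mm9, with versions left out here; no source used here gives strandedness or read length. The authors deposited raw read counts for 37991 genes and FPKM values for 37839 entries, whose headers open each title. Antisense or overlapping genes may therefore share counts. Counts were tested with edgeR 4.0.16 (R 4.3.3) over all 12 libraries with 3 group means, filterByExpr, TMM scaling and Benjamini-Hochberg adjustment over 16473 genes. DESeq2 1.42.0, limma 3.58.1 on log2(FPKM + 0.1), other filters, terms for sex and sample name, and leaving out each library were alternatives. Genes whose counts were out of step with the authors' FPKM by 0.5 on the log2 scale in 513, 549 and 564 were not named. They stay in the counts of genes that rose or fell. On simulated counts with 50 genes at each fold, tamoxifen against uninjured, edgeR called 96%, 74%, 86% and 100% at folds of 0.25, 0.5, 2 and 4, and 11 of 16273 unchanged genes. The simulation changed far fewer genes than were called in the data. It held no differences of sample name series, sex or dissected tissue, so these rates may not hold for the data. Named genes are the 10 largest rises and falls with a mean of at least 5 CPM in 1 group, the 4 smallest p-values of each list, called members against their list's direction and a few set genes; others were chosen after their values were seen, and a few genes are not reported here. The 43 lists and their members were chosen with earlier results of these data known. Hmgcs1 and Psmb9 had no counts. The p-values rest on the spread among libraries within the 3 groups, with 1 mouse per library. That spread also holds differences of sample name series, sex and dissected tissue.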

Additional observations from a re-analysis of the deposited data

Results flagged for a closer look

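In 18 of 376 groups of 4 libraries, 1 library's gap to its nearest neighbour took up more of the group's range than Dixon's 95% limit allows, and chance does so in about 1 group in 20. Of these, 10 were uninjured and 8 tamoxifen groups. Values are CPM.

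Library 452 stood apart among the lesions for Cst7 at 45.9 (others 7.28 to 8.72), Ccl3 at 10.2 (3.12 to 4.29), Glra1 at 77.2 (48.3 to 51.4), Reln at 173 (126 to 132) and Col18a1 at 28.9 (38.3 to 39.9). Library 564 did so for Col1a1 at 189 (101 to 114) and Myh4 at 4.59 (0 to 0.28), and 513 for Gprin3 at 1.96, where the others were at 1.56.

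Among uninjured libraries, 377 was apart in 5 muscle or stress genes: Acta1 at 187 (1.23 to 32.8), Ttn at 95.6 (2.07 to 14.0), Actn3 at 72.6 (2.18 to 11.2), Ckm at 66.8 (0.0878 to 10.7) and Btg2 at 11.6 (9.39 to 9.58). Library 467 was apart in Hoxc10 at 9.92 (2.14 to 2.30), Ebp at 26.6 (21.2 to 22.0) and Spry4 at 24.4 (28.8 to 29.7). Library 376 was apart in Mki67 at 7.12 (1.63 to 2.55) and in the neutrophil granule gene Camp at 10.1 (0.176 to 1.11).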

How the results depend on the processing

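The count of genes higher in tamoxifen lesions was 4328. It was 1244 with a term for the sample name series, 1262 with library 452 as the only tamoxifen library, 1370 at a change of at least 2-fold, and 3674 to 4697 when each library was left out. The count of lower genes was 3735, and 707, 762, 303 and 3026 to 4198 under the same settings, and 2389 without the uninjured libraries that held muscle. The fit with 452 alone was added after the data were seen and assumes that it varies like the other groups. Of 188 named genes 175 passed, and with the series term or 452 alone 103 of them still passed in the same direction, 71 did not and Reln turned. The cause was not tested; both settings leave 1 library to carry the comparison.

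Signs reversed as follows (log2 changes). With the series term or 452 alone, Reln was 0.03 and Pdgfrb 0.17. In FPKM with 0.1 added, 1 added and no filter, Reln was 0.26, 0.25 and 0.26, and Pdgfrb 0.05 each time. Without uninjured 377 and 385, Myh4 was 2.07, Ckm 1.91, Acta1 1.71, Mbp -0.01 and Pdgfrb 0.05. With each library left out, Camp ran from -2.18 to 0.38 and Pdgfrb from -0.11 to 0.06. No paired analysis was possible because replicate numbers are mouse numbers and no number is shared between groups. Low counts limit the genes near 0 in uninjured cord, whose fitted changes depend on the prior count.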
